A study of Sus scrofa with 9 samples.

Results

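The transcripts of 10 genes for the protein folding machinery of the endoplasmic reticulum (ER) were followed in cultured immature Sertoli cells of the pig, unheated, just heated and recovering from heat. The genes were HSPA5, HYOU1, DNAJB9, MANF, CRELD2, HSP90B1, CALR, PDIA4, HERPUD1 and SDF2L1, and they were taken from the gene table by their symbol alone. Of the 10 symbols, 9 were found among the 20681 genes of the table, and SDF2L1 was not matched. All 9 passed the filter on low values, which asked for an FPKM of at least 1 in at least 3 of the 9 libraries and left 11479 genes, and all 9 reached that level in every library. FPKM counts fragments per kilobase of gene length, scaled to the size of the library, so that levels of different genes can be compared per length.

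Secreted and membrane proteins fold in the lumen of the ER, where chaperones bind unfolded stretches, lectins hold sugar-bearing chains and disulfide isomerases join cysteines. When unfolded proteins build up there, the sensors IRE1, ATF6 and PERK of the unfolded protein response raise the transcripts of these helpers. Heat acts first on the cytosol and nucleus, where heat shock factor 1 drives a separate set of chaperones. Sertoli cells form the wall of the testis cords, support germ cells and secrete many glycoproteins, anti-Müllerian hormone among them.

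The cells came from testes of fetuses aged 80 to 90 days and were grown at 37 °C and 5% CO2 in minimum essential medium with 10% fetal bovine serum and antibiotics, with 6 h of culture between seeding and the exposure. The control group (3 libraries) was sampled before heat, the HS0.5 group (3 libraries) at 0 h after 0.5 h at 43 °C, and the HS0.5-R36 group (3 libraries) after the same heat and 36 h back at 37 °C. No library of unheated cells at 36 h was among those analysed, so heat and the longer culture cannot be told apart in the recovered cells, and at 0 h the same holds for the heat and 0.5 h of further culture and handling. The labels do not give the number of animals or say whether the 3 replicates of a group were separate cultures, so p-values measure the spread between these libraries, which may be technical.

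The libraries held 18110565 to 21034021 reads, recovered from FPKM and gene length. The library size implied by the FPKM was 0.902 to 0.973 times those reads in control and HS0.5 and 1.17 to 1.19 times in HS0.5-R36, a scaling by the authors that the sources used here do not describe. Rescaling every library to the same sum (TPM) moved the median log2 change of all tested genes at 36 h by 0.303, from -0.06 to 0.24, so values on that scale are given beside the changes of the 9 genes at 36 h. Control replicate 2 stood apart, with a median log2 difference from the other controls of 0.39 over the 1147 shortest tested genes and of -0.28 over the 1147 longest. Of 13 Sertoli markers 10 were matched and 5 tested, and AMH, WT1 and SOX9 were present in control at 22.3, 7.96 and 6.47 FPKM. DHH, KITLG, INHA, NR5A1 and DMRT1 were under 1 FPKM in all groups, and GATA4, FSHR and CLDN11 were not matched. Markers of germ cells and endothelium summed to less than 1 FPKM in every control library, while the epithelial keratin KRT7 was at 391.7 FPKM there.

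Most of the ER chaperones were abundant in the unheated cells, while HERPUD1 and DNAJB9 stood lower in FPKM. The HERPUD1 level is divided by the 6049 bases of a model that also covers SLC12A3, so its rank depends on that model. HSPA5 stood at rank 55 of all genes by mean control FPKM, CALR at 75, HSP90B1 at 154, PDIA4 at 298, MANF at 424, HYOU1 at 618, CRELD2 at 1320, HERPUD1 at 3717 and DNAJB9 at 9663. In this order PDIA4 and MANF were the only neighbours whose control libraries overlapped in FPKM. Summed over the 9 genes, the control level was 1947 ± 239 FPKM (SD, n = 3), the HS0.5 level 1894 ± 48.5 and the recovered level 974 ± 11.6. HSPA5 alone made up 37.6% to 39.4% of that sum, and HSPA5, CALR and HSP90B1 together 78.1% to 80.0%, in every library of every group. As a share of recovered reads, which the authors' scaling does not touch, the 9 genes held 0.526% ± 0.0371 in control, 0.502% ± 0.0057 at 0 h and 0.343% ± 0.00224 at 36 h (SD, n = 3 each).

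**Figure D1:**
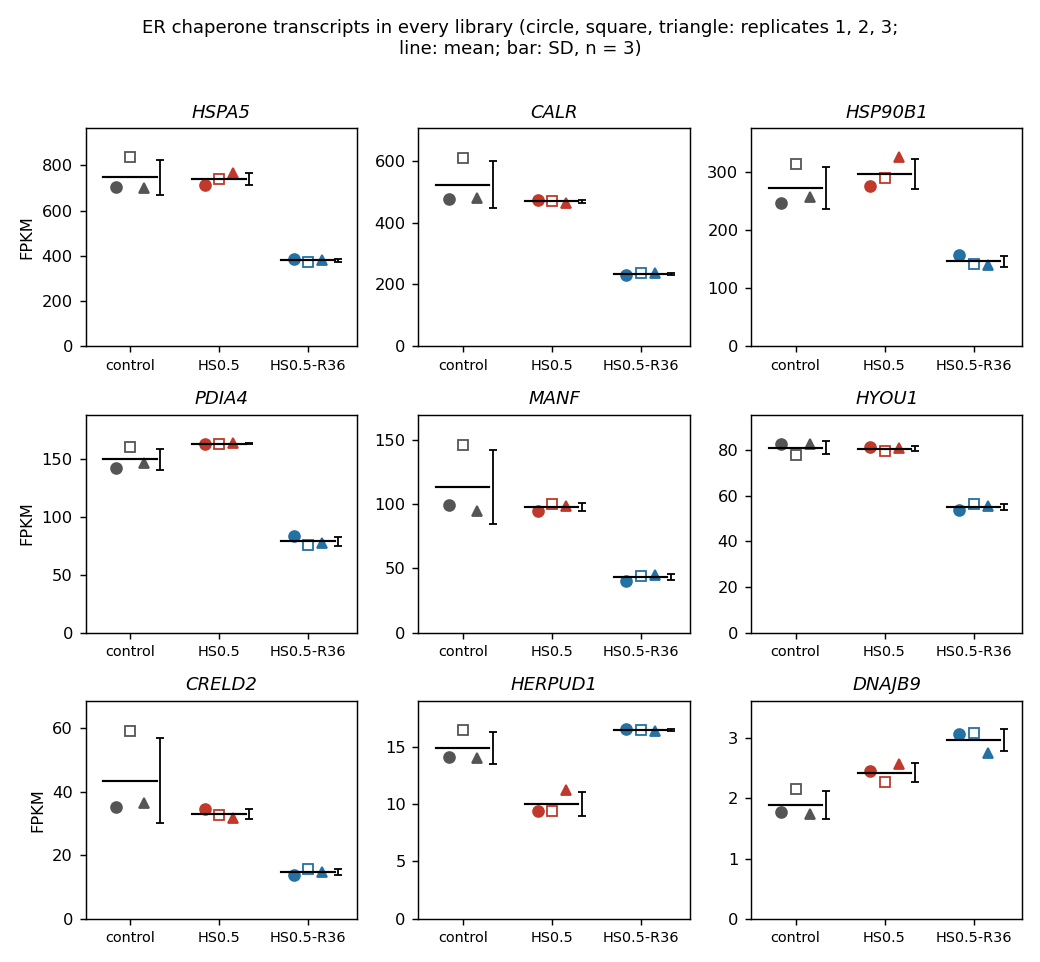
FPKM (y axis, from 0) of the 9 measured ER chaperone genes in each of the 9 libraries, by group; circles, squares and triangles are replicates 1, 2 and 3, lines are means and bars are SD (n = 3). For 7 genes the HS0.5-R36 libraries lie below all others, DNAJB9 is highest there, and HERPUD1 is lowest in HS0.5.

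At the end of the exposure, 8 of the 9 ER chaperone genes were not called different from control. Of 10 cytosolic and mitochondrial relatives 4 had risen, all of them cytosolic. Ratios of the HS0.5 mean to the control mean ran from 0.672 for HERPUD1 to 1.28 for DNAJB9. Of the 9 genes none rose and 1, HERPUD1, fell (limma, Benjamini-Hochberg adjusted over all tested genes, threshold 0.05), against 3.62% of all tested genes called in this comparison and 1.32% called lower; that call was lost when any of 3 single libraries was left out. Called higher at 0 h were 263 of all 11479 tested genes. At an unadjusted p under 0.05 there were 2 of the 9 genes, HERPUD1 and DNAJB9. The median log2 change of the 9 genes was -0.01, as it was over all tested genes. HS0.5 libraries lay wholly above control for 2 genes (DNAJB9, PDIA4) and wholly below for 3 (HERPUD1, CRELD2, CALR), and 40.5% of all tested genes had groups that did not overlap.

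After 36 h of recovery, 7 of the 9 genes were lower than in control and 1, DNAJB9, was higher. CRELD2, MANF and CALR had fallen furthest, to 0.342, 0.379 and 0.450 times the control mean, HSPA5, PDIA4 and HSP90B1 to 0.509, 0.527 and 0.539 times, and HYOU1 to 0.680 times, a change whose sign turned under quantile normalization. Of all tested genes, 63.1% were called in this comparison, 34.6% lower and 28.5% higher, and 66.9% had groups that did not overlap. The median log2 change of the 9 genes was -0.92, beside -0.06 over all tested genes. Scarcer genes are part of that background. With FPKM of at least 5 in at least 3 libraries, the median was -0.94 for the 8 genes left, beside -0.21 over all. On that filter 3502 of 8063 genes were called lower and 1784 higher. Under quantile normalization the median of the 9 genes was -0.32, beside 0.01 over all. On the TPM scale 6 of the 9 were lower and 2 higher, with a median of -0.57 beside 0.24, and HYOU1 was the gene that no longer passed. Of all genes tested on that scale, 19.5% were called lower and 43.8% higher. In bulk libraries, fewer cells of a type and less RNA per cell cannot be told apart.

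The recovered cells were also compared with the cells at 0 h, a comparison that shares the HS0.5-R36 libraries with the last one. The same 7 genes were lower and HERPUD1 was higher, where 63.8% of all tested genes were called, 35% lower and 28.8% higher. The median was -0.99, beside -0.07 over all tested genes. With FPKM of at least 5 it was -1.003 for the 8 genes left, beside -0.196 over all. Under quantile normalization it was -0.53, beside -0.015. In TPM 6 genes were lower and 2 higher, where 19.3% of all tested genes were called lower and 43.7% higher, and the median was -0.65. HYOU1 (-0.54 on the deposited scale) was the gene whose fall was lost, in TPM (-0.20, limma adjusted p = 0.10) as under quantile normalization (-0.04, limma adjusted p = 0.69). The other 6 falls ran from -0.83 for MANF to -0.61 for HSPA5 in TPM, and HERPUD1 was at 0.99. DNAJB9 did not pass on the deposited scale (log2 change of 0.21, limma adjusted p = 0.057), although its libraries did not overlap. It passed in TPM (0.47, limma adjusted p = 0.00074) and by voom on the recovered reads (0.38, limma adjusted p = 0.012), and was at 0.03 under quantile normalization (limma adjusted p = 0.81).

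**Figure D2:**
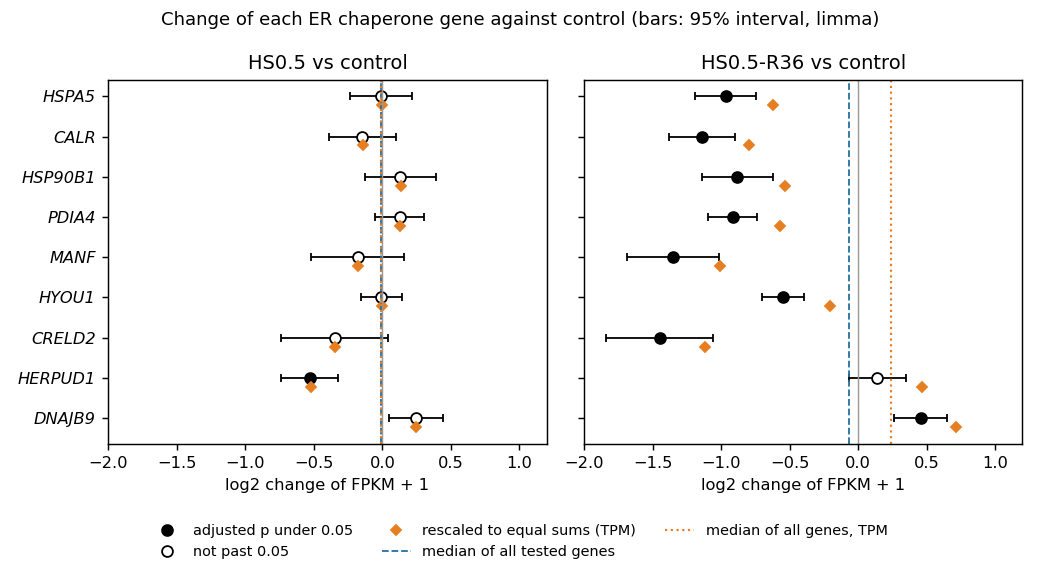
Log2 change of FPKM + 1 against control (x axis) at 0 h (left) and 36 h (right) for each ER chaperone gene; circles are limma estimates with 95% intervals, filled where the adjusted p is under 0.05, diamonds are the estimates after rescaling to TPM, and vertical lines are medians of all tested genes. At 36 h 7 filled circles lie between -1.45 and -0.55, DNAJB9 lies at 0.46, and the diamonds sit to the right of the circles, with HYOU1 at -0.21.

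HSPA5 encodes BiP, the HSP70 of the ER and the chaperone that holds the 3 sensors inactive (ENSSSCG00000005601, chromosome 1, 265930045 to 265934904, minus strand; the build behind the coordinates was not given in the sources used here). Its FPKM was 705, 837 and 699.6 in the control libraries, 714.5, 737 and 768 in HS0.5 and 387, 373 and 381 in HS0.5-R36. Control and HS0.5 overlapped, and the recovered libraries lay close together below all others. The log2 change was -0.01 at 0 h (95% interval -0.23 to 0.21, limma adjusted p = 0.95) and -0.97 ± 0.10 at 36 h (SE, limma adjusted p = 3.2e-05). The estimate at 36 h was -0.62 after rescaling to TPM, -0.53 after quantile normalization and -0.87 by voom on the recovered reads. Its model overlaps a gene with no symbol, ENSSSCG00000019358, and how shared reads were counted is not described.

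HYOU1 is GRP170, a large HSP70 relative that exchanges the nucleotide of BiP (ENSSSCG00000015106, chromosome 9, 46264929 to 46276996, minus strand). It stood at 82.8, 78.1 and 82.7 FPKM in control, 81.4, 79.6 and 81.1 in HS0.5 and 53.8, 56.5 and 55.3 in HS0.5-R36. It was the steadiest of the 9 genes at 0 h, with an interval of the log2 change from -0.16 to 0.14, and the recovered libraries did not overlap the others. The fall at 36 h was -0.55 ± 0.07 (SE, limma adjusted p = 9.2e-05) on the deposited scale, but it did not pass on the TPM scale (-0.21, limma adjusted p = 0.098) and the sign turned under quantile normalization (0.02, limma adjusted p = 0.88). HYOU1 was also the only one of the 9 genes that was lower in control replicate 2 than in the mean of the other controls, at 0.944 times.

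DNAJB9 is ERdj4, a J-domain partner of BiP that in mammalian cells brings BiP to the sensor IRE1 (ENSSSCG00000016653, chromosome 18, 36549544 to 36584130, minus strand). It was scarce, with 161 to 214 reads in a control library, 204 to 238 in HS0.5 and 312 to 387 in HS0.5-R36. In FPKM it went from 1.78, 2.16 and 1.75 in control to 2.45, 2.26 and 2.57 in HS0.5 and 3.07, 3.08 and 2.75 in HS0.5-R36. Every HS0.5 library was above every control and every recovered library above both groups. The log2 change was 0.25 ± 0.09 at 0 h, which did not pass (limma adjusted p = 0.12), and 0.46 ± 0.09 at 36 h, which did (limma adjusted p = 0.0014). The added 1 in log2(FPKM + 1) shrinks the change of so low a gene, and its mean FPKM at 36 h was 1.57 times that of control, or 2.005 times in TPM. The log2 change at 36 h was 0.71 in TPM and 0.25 under quantile normalization (limma adjusted p = 0.043).

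MANF is a small secreted protein that binds BiP and steadies its hold on clients, and was first described as a trophic factor for neurons (ENSSSCG00000032914, chromosome 13, 33658255 to 33662261, plus strand). Its libraries were at 99.1, 146 and 94.5 FPKM in control, 94.6, 100.2 and 98.8 in HS0.5 and 40.2, 44.0 and 44.6 in HS0.5-R36. The second control library stood above all others, HS0.5 overlapped the remaining controls, and the recovered libraries were below all of them. The log2 change was -0.18 at 0 h (limma adjusted p = 0.41) and 0.02 once control replicate 2 was left out, and -1.35 ± 0.15 at 36 h (SE, limma adjusted p = 5e-05), or -1.01 in TPM.

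CRELD2 is an ER stress-induced protein with epidermal growth factor-like repeats that is retained in or secreted from the ER (ENSSSCG00000000981, chromosome 5, 709045 to 716927, minus strand). It measured 35.1, 59.1 and 36.4 FPKM in control, 34.6, 32.6 and 31.8 in HS0.5 and 13.9, 15.9 and 14.9 in HS0.5-R36. All HS0.5 libraries were below all controls by a small margin, and the recovered libraries lay far below both. The log2 change at 0 h was -0.35 ± 0.17 and did not pass (limma adjusted p = 0.20), and it was -0.11 without control replicate 2 (limma adjusted p = 0.31). At 36 h it was -1.45 ± 0.17 (limma adjusted p = 8e-05), the furthest fall of the 9 genes, and -1.12 on the TPM scale.

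CRELD2 and MANF have the shortest gene models of the 9, at 1630 and 1624 bases, and they were also the genes that control replicate 2 raised most, to 1.65 and 1.51 times the mean of the other controls. The part of that library in their changes was measured by leaving it out. Without it, HS0.5-R36 stood at 0.416 times control for CRELD2 and 0.444 times for MANF, and both falls still passed with log2 changes of -1.21 (limma adjusted p = 1.6e-06) and -1.16 (limma adjusted p = 1.4e-06). After a fit of each library's dependence on gene length was subtracted, they were -1.29 and -1.19.

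HSP90B1 is GRP94, the HSP90 of the ER, which folds integrins and Toll-like receptors (ENSSSCG00000000849, chromosome 5, 80511507 to 80531005, minus strand). It was at 247, 314 and 258 FPKM in control, 277, 289.7 and 326 in HS0.5 and 158, 142 and 141 in HS0.5-R36. Control and HS0.5 overlapped and the recovered group lay below both. The log2 change was 0.13 at 0 h (interval -0.13 to 0.39, limma adjusted p = 0.44) and -0.88 ± 0.12 at 36 h (limma adjusted p = 0.00014), or -0.54 in TPM and -0.30 under quantile normalization. Its gene overlaps C12orf73, a gene of 1.90 to 5.31 FPKM, and the counting of shared reads is not described.

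CALR, calreticulin, is the soluble lectin that holds newly made glycoproteins and a calcium store of the ER lumen (ENSSSCG00000013746, chromosome 2, 66098225 to 66102340, minus strand). Its FPKM was 478, 610.4 and 479 in control, 473, 470.45 and 463 in HS0.5 and 231, 238 and 236 in HS0.5-R36. The HS0.5 libraries lay just below the lower controls, and the recovered libraries were about level with each other and below all others. The log2 change was -0.15 at 0 h (limma adjusted p = 0.36) and -1.14 ± 0.11 at 36 h (SE, limma adjusted p = 2e-05), or -0.79 in TPM and -0.57 under quantile normalization.

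PDIA4 is ERp72, a disulfide isomerase with extra thioredoxin domains (ENSSSCG00000015453, chromosome 9, 109252010 to 109280249, plus strand). Its libraries were at 143, 160.4 and 147 FPKM in control, 163.43, 163.08 and 163.89 in HS0.5 and 83.5, 75.8 and 77.5 in HS0.5-R36. The HS0.5 libraries were above all controls and nearly identical, with an SD of 0.407. The log2 change of 0.13 at 0 h did not pass (interval -0.05 to 0.30, limma adjusted p = 0.28), and at 36 h it was -0.92 ± 0.08 (SE, limma adjusted p = 1.1e-05), or -0.57 in TPM and -0.32 under quantile normalization.

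HERPUD1 was lowest at 0 h and, on the deposited scale, back at about its control level at 36 h. It encodes Herp, a membrane protein that gathers the ubiquitin ligase complex of ER-associated degradation (ENSSSCG00000040663, chromosome 6, 18844576 to 18913424, plus strand). The libraries were at 14.1, 16.5 and 14.0 FPKM in control, 9.39, 9.41 and 11.2 in HS0.5 and 16.6, 16.4 and 16.3 in HS0.5-R36. All HS0.5 libraries lay below all others, and the recovered libraries fell within the range of control or just above it. It fell at 0 h by 0.53 ± 0.09 on the log2 scale (limma adjusted p = 0.02), and from 0 h to 36 h it rose by 0.67 ± 0.09 (limma adjusted p = 0.00018). Against control at 36 h the log2 change was 0.14 (interval -0.07 to 0.35, limma adjusted p = 0.21).

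The call at 0 h rests on single libraries. It was lost when control replicate 1 (limma adjusted p = 0.052), HS0.5 replicate 1 (limma adjusted p = 0.07) or HS0.5 replicate 2 (limma adjusted p = 0.092) was left out, with log2 changes for HERPUD1 of -0.61 to -0.46 over all 9 ways to leave out a library. The comparison at 36 h depended on scale and on control replicate 2: HERPUD1 was higher than control in TPM (0.47, limma adjusted p = 0.00056), under quantile normalization (0.36, limma adjusted p = 0.0043), by voom on the recovered reads (0.25, limma adjusted p = 0.033) and without that library (0.21, limma adjusted p = 0.037). The gene model spans 68849 bases and covers the RefSeq genes SLC12A3 and HERPUD1, and its deposited protein description is that of SLC12A3, a salt carrier of the kidney tubule. A second gene of the table named SLC12A3 was at 0 in 7 of the 9 libraries and at 0.0154 and 0.0382 FPKM in the others. Reads of the joined model cannot be divided between the pair of genes here.

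SDF2L1, a stress-induced partner of the J protein ERdj3, has no gene of that symbol in the table. A gene with no symbol (ENSSSCG00000010084, chromosome 14, 50234156 to 50251642, minus strand) carries the description of the SDF2-like protein and spans a further RefSeq gene and a microRNA gene besides SDF2L1. It stood at 4.83, 8.46 and 4.56 FPKM in control, 3.41, 4.08 and 3.35 in HS0.5 and 3.05, 3.92 and 3.61 in HS0.5-R36. Both later groups lay below all controls and overlapped each other. It was not counted among the 9 genes.

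With these courses the order of levels changed in the recovered cells. In control and in HS0.5, MANF was above HYOU1 and CRELD2 above HERPUD1. In HS0.5-R36, HYOU1 (55.2 ± 1.36 FPKM) was above MANF (42.9 ± 2.39) and HERPUD1 (16.4 ± 0.120) above CRELD2 (14.9 ± 0.954), in each case with no overlap between libraries (SD, n = 3 each). The place of HERPUD1 against CRELD2 depends on the gene models, at 6049 bases for the model joined with SLC12A3 and 1630 for CRELD2. With a shorter HERPUD1 model its levels per length would be higher in all groups, so this change of order may not hold.

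All the genes but MANF were also set against a relative within the same library, since the scaling between libraries drops out of such a ratio apart from the added 1. The relative planned for MANF, CDNF, was not matched. The relatives were cytosolic, mitochondrial or ER members of the same chaperone class, 10 pairs in all, tested by a two-sided exact permutation test of 3 libraries against 3, in which the smallest p possible is 0.1. No ratio could therefore pass, and the Benjamini-Hochberg adjusted value over the 10 pairs was 0.125 at the lowest in each comparison. At 0 h the ratio was lower in all HS0.5 libraries than in all controls for 7 pairs and higher for 1. At 36 h it was higher for 4 and lower for 4. Among single genes, 40.5% of all tested had groups that did not overlap at 0 h and 66.9% at 36 h. No such share was worked out for ratios. At 0 h the relatives HSPH1, HSP90AA1 and DNAJB1 were themselves called higher, which lowers the ratios to them.

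The BiP gene HSPA5 was on average above the cytosolic HSPA8, with a log2 ratio of 1.08 ± 0.0723 in control, 0.717 ± 0.107 at 0 h and 0.554 ± 0.0620 at 36 h (SD, n = 3 each). Neither later group overlapped control (exact permutation p = 0.1 for each). HSPA8 itself was at 355, 451 and 259 FPKM in the respective groups. Against the mitochondrial HSPA9 the ratio was 0.16 higher at 36 h (exact permutation p = 0.1), with HSPA9 at 257, 271 and 117 FPKM.

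HSP90B1 was set against both cytosolic HSP90 genes, and at 36 h the changes of the ratios from control differed in sign. Against HSP90AB1, the form made without stress, the log2 ratio was 0.291 ± 0.230 in control, 0.0129 ± 0.0248 at 0 h, below all controls (exact permutation p = 0.1), and 0.129 ± 0.0714 at 36 h, overlapping them (exact permutation p = 0.4). Against the stress-induced HSP90AA1 it was -0.956 ± 0.0787 in control, -1.49 ± 0.0561 at 0 h and -0.297 ± 0.0360 at 36 h, without overlap between any of the groups (exact permutation p = 0.1 for each comparison with control). HSP90AA1 went from 529 to 843 and then 181 FPKM. HYOU1 against the cytosolic HSP110 gene HSPH1 followed the same order, at 0.898 ± 0.0657, -0.247 ± 0.365 and 1.28 ± 0.140, and so did DNAJB9 against DNAJB1, at -3.30 ± 0.0634, -5.72 ± 0.233 and -2.67 ± 0.135. In these 3 pairs the ER gene was lower against its relative at 0 h and higher at 36 h than in control.

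Within the ER, CALR was set against the membrane lectin CANX and PDIA4 against PDIA3, the isomerase that works with both lectins. The CALR to CANX log2 ratio was 0.45 lower at 0 h and 0.55 lower at 36 h than in control (exact permutation p = 0.1 for each), but control replicate 2 stood at 2.13 and the other controls at 1.43 and 1.42. PDIA4 to PDIA3 overlapped control at 0 h (0.10, exact permutation p = 0.2) and was 0.33 lower at 36 h (exact permutation p = 0.1). CRELD2 to CRELD1 was 0.35 higher at 0 h and 1.18 lower at 36 h (exact permutation p = 0.1 for each). At 0 h both genes were lower, CRELD1 by more (log2 change -0.70) than CRELD2 (-0.35, not called). HERPUD1 to HERPUD2 was 0.71 lower at 0 h (exact permutation p = 0.1) and 0.03 higher at 36 h, with overlap (exact permutation p = 1).

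**Figure D3:**
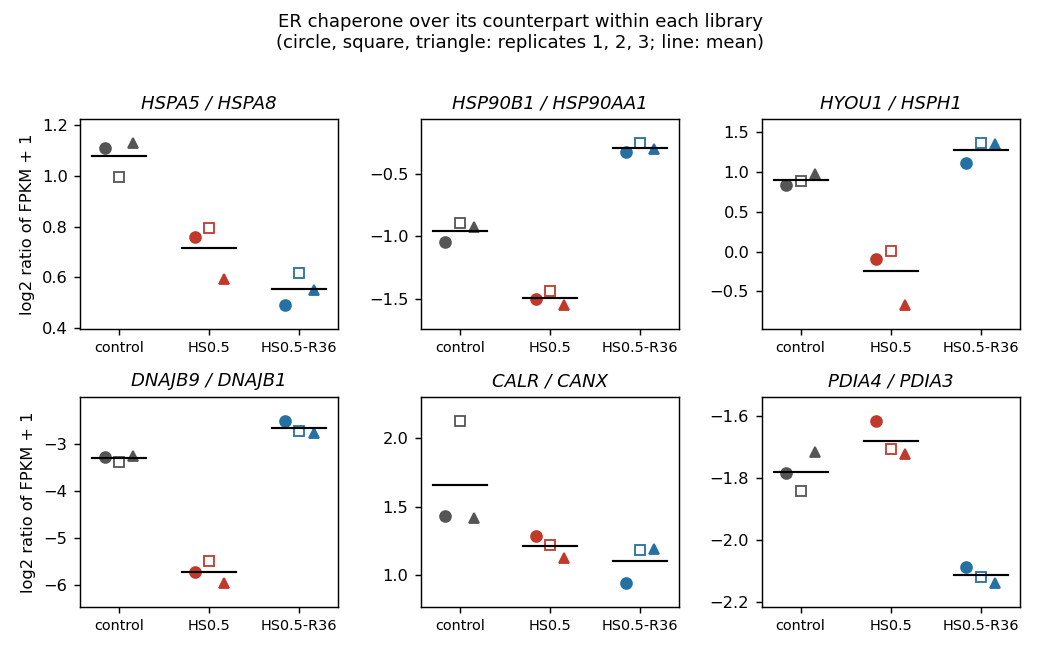
Log2 ratio of FPKM + 1 (y axis, not from 0) of 6 ER chaperone genes to a relative, within each library; circles, squares and triangles are replicates 1, 2 and 3 and lines are means (n = 3). HSP90B1, HYOU1 and DNAJB9 are lowest against their heat-induced relatives in HS0.5 and highest in HS0.5-R36, while HSPA5 against HSPA8 and CALR against CANX have their lowest means in HS0.5-R36.

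Other genes of ER folding and quality control were read from 10 lists chosen with earlier results known. At 0 h, 3.62% of all tested genes were called, and 1.32% were called lower. Calls at 0 h lay mainly among the heat-induced relatives and the targets of the factor ATF4 (1 of 14 higher and 2 lower). Of 17 BiP cofactors and folding helpers 1 fell. None passed of 16 isomerases, 9 calnexin cycle genes, 21 degradation genes or 12 sensors and factors of the unfolded protein response. The same held for 16 translocation genes, 9 oligosaccharyltransferase genes and 13 carrier genes. The folding helper that fell was CRELD1, from 15.4 to 9.05 FPKM (-0.70, limma adjusted p = 0.037). That call was lost when any of 7 single libraries was left out (control replicate 1 or 2, any HS0.5 replicate, HS0.5-R36 replicate 2 or 3), with a limma adjusted p of up to 0.16. XBP1, the factor that IRE1 activates by splicing, was at 20.5 ± 2.09, 16.5 ± 0.227 and 18.65 ± 0.647 FPKM in control, HS0.5 and HS0.5-R36 (limma adjusted p = 0.08 at 0 h and 0.21 at 36 h). Gene-level FPKM do not show its splicing, and the gene of IRE1 itself, ERN1, was not matched.

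At 36 h the genes that help ER chaperones were lower in part, and their counts are read against the 34.6% of all tested genes called lower and 28.5% called higher. Of 17 BiP cofactors and folding helpers 10 fell and none rose (median log2 change -0.30), led by the J protein DNAJB11 (-0.98), the prolyl isomerase PPIB (-0.98) and the collagen chaperone SERPINH1 (-0.93). SERPINH1 went from 355 ± 57.1 to 185 ± 13.9 FPKM (SD, n = 3 each, limma adjusted p = 0.00017). Of 16 isomerases and oxidases 10 fell and 2 rose (median -0.35), with PDIA6 at -1.11, TXNDC12 at -0.93, TMX1 at -0.89 and PRDX4 at -0.80. The genes that rose were TMX4 (0.49) and ERO1B (0.74), the latter from 0.575 to 1.64 FPKM. Of 9 calnexin cycle genes 6 fell (median -0.42), among them CANX (-0.59), LMAN2 (-0.52), MOGS (-0.51) and the glucosidase gene GANAB (-0.46). LMAN2 did not pass without HS0.5-R36 replicate 1 (-0.41, limma adjusted p = 0.084) or with only the 2 groups compared (limma adjusted p = 0.053), and was at -0.32 without control replicate 2. On the TPM scale the counts were 4 lower and 3 higher, 6 and 2, and 0 and 0, with medians of 0.03, -0.03 and -0.08 beside 0.24 over all genes, of which 19.5% were lower and 43.8% higher. Under quantile normalization the median of the calnexin cycle was 0.03, and CANX and GANAB were at 0.03 and 0.13, neither called.

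Genes that bring proteins into the ER and out of it were read against the same shares of all tested genes, among which falls also outnumbered rises on the deposited scale. Translocation and signal peptidase genes had 12 of 16 lower and none higher (median -0.50), with the receptor subunit SRPRA at -0.95, SPCS3 at -0.83, SEC61A1 at -0.68 and SEC61G at -0.85. SEC61G was called on the deposited scale (limma adjusted p = 0.033) and lost in TPM and without control replicate 1 or 2 or HS0.5-R36 replicate 1 (limma adjusted p of up to 0.11 with a library left out). The oligosaccharyltransferase had 7 of 9 lower (median -0.52), with OSTC at -0.77, RPN1 at -0.73, DDOST at -0.64 and STT3A at -0.57. Under quantile normalization 2 of the 9 were lower (median -0.09), where 30.2% of all tested genes were, and RPN1 (-0.14, limma adjusted p = 0.13) and DDOST (-0.09, limma adjusted p = 0.28) did not pass. The COPII carriers and KDEL receptors, which return chaperones that leave the ER, had 6 of 13 lower and 1 higher (median -0.19), with KDELR2 at -0.87, SEC23B at -0.71 and SEC13 at -0.70, and SEC24D at 0.49. In TPM 4 of 16, 5 of 9 and 3 of 13 were lower and 0, 1 and 3 higher. The carriers' median turned to 0.14, below the 0.24 over all genes tested in TPM, of which 19.5% were lower and 43.8% higher.

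ER-associated degradation and the sensors had members in both directions. So did all tested genes, of which 34.6% were called lower and 28.5% higher. Of 21 degradation genes 10 fell and 1 rose (median -0.14), AUP1 at -0.997, SELENOS at -0.89 and UBE2J2 at -0.88 against NGLY1, the cytosolic glycanase, at 0.77. Of 12 sensors and factors 5 fell and 3 rose (median -0.17). The ER-bound factor CREB3L1 went from 65.9 ± 0.914 to 20.4 ± 0.737 FPKM (-1.65, limma adjusted p = 5.2e-07) and ATF4 from 117 ± 20.4 to 53.9 ± 2.92 (-1.10, limma adjusted p = 4.4e-05), while CREB3L2 rose (0.66) and CREB3 fell (-0.47). EIF2AK3, the gene of PERK, rose by 0.45 and DDIT3, the gene of the death-linked factor CHOP, by 0.46, although DDIT3 did not pass under quantile normalization. ATF6B (-0.21) and MBTPS1 (-0.29), the gene of a protease that cuts ATF6, fell on the deposited scale, but their signs turned in TPM (0.12 and 0.05) and under quantile normalization, and ATF6B passed only with control replicates 1 and 2, HS0.5 replicate 2 and all HS0.5-R36 replicates in the fit (limma adjusted p of 0.053 to 0.094 without one of them). In TPM 5 degradation genes were lower and 7 higher and 2 sensors lower and 5 higher, with medians of 0.19 and 0.16. Both medians were below the 0.24 over all genes tested in TPM, of which 19.5% were lower and 43.8% higher. CREB3 no longer passed in TPM (limma adjusted p = 0.17).

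Targets of ATF4, the factor of the PERK branch and of amino acid shortage, moved in both directions, with 7 of 14 lower and 6 higher at 36 h (median -0.33). Both directions were also common over all tested genes, with 34.6% called lower and 28.5% higher at 36 h. SLC3A2 (-1.67), CHAC1 (-1.52) and STC2 (-1.32) fell and NUPR1 rose (2.13, from 3.91 ± 1.05 to 20.3 ± 2.67 FPKM, limma adjusted p = 2.4e-05). At 0 h 2 of the 14 had fallen and 1 had risen, with CHAC1 at -1.05 (limma adjusted p = 0.0029), SESN2 at -0.43 and DDIT4 at 0.63. Over all 11479 tested genes, 263 were called higher and 152 lower at 0 h. SESN2 was lost in TPM and without control replicate 1 or any 1 HS0.5 replicate (limma adjusted p of up to 0.067) and DDIT4 without any 1 HS0.5 replicate (up to 0.071). The cytosolic and mitochondrial relatives had 4 of 10 higher at 0 h, namely HSPA6 (5.35), DNAJB1 (2.66), HSPH1 (1.14) and HSP90AA1, and 8 of 10 lower at 36 h (median -0.82), with HSPE1 at -1.64 and HSP90AA1 at -1.54. HSP90AA1 had risen at 0 h (0.67, limma adjusted p = 0.021), a call lost without control replicate 1 or any 1 HS0.5 replicate (limma adjusted p of up to 0.097). In TPM the ATF4 targets had 4 lower and 6 higher (median -0.02) and the relatives 6 lower and none higher (median -0.48). Over all genes tested in TPM, 19.5% were lower and 43.8% higher (median 0.24).

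**Figure D4:**
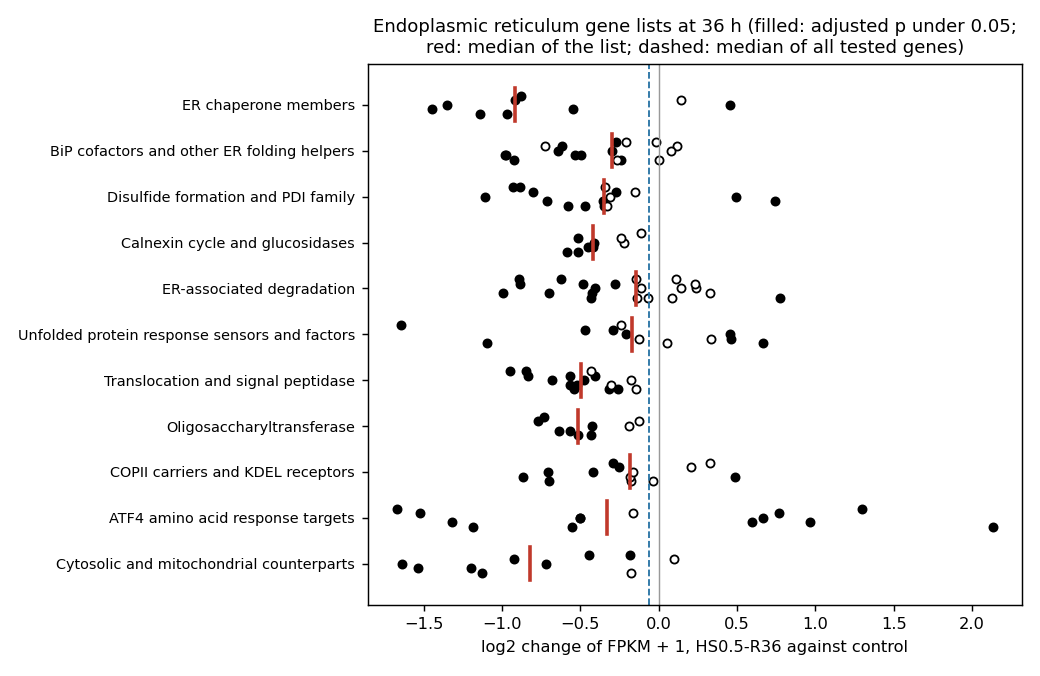
Log2 change of FPKM + 1 in HS0.5-R36 against control (x axis) for each tested gene of the ER chaperones and 10 further lists; filled points passed (limma adjusted p under 0.05), red bars are list medians and the dashed line is the median of all tested genes. List medians run from -0.92 for the ER chaperones to -0.14 for ER-associated degradation on the deposited scale. On the TPM scale the medians of the folding helpers, the degradation genes, the sensors and the carriers are above 0. They are still below the TPM median of all genes, 0.24.

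The genes whose course over the 9 libraries was most like that of the ER chaperones were not ER genes, with 1 exception. Likeness was Pearson's r with the mean standardized log2(FPKM + 1) of the 9 genes, over 4649 genes with a symbol and a mean of at least 10 FPKM. FBL (0.998), LSM3 (0.995), ILF2 (0.995), GLRX3 (0.994), ALYREF (0.994) and AUP1 (0.994) were nearest, and AUP1 is the ER gene among them. The values describe these libraries only, since the recovered libraries stand apart from the rest and any gene that fell at 36 h and was high in control replicate 2 scores well. Of the 9 genes themselves, 7 had an r of 0.93 to 0.99 with their own mean, while HERPUD1 (-0.48) and DNAJB9 (-0.70) ran against it.

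The falls at 36 h went with a shift in marker genes of cell identity. Marker counts at 36 h are read against the 34.6% of all tested genes called lower and 28.5% called higher. All marker values are on the deposited scale. The summed level of the matched Sertoli markers was 42.5 to 46.9 FPKM in control, 42.9 to 47.2 in HS0.5 and 16.6 to 18.8 in HS0.5-R36, with 4 of 5 tested lower and 1 higher at 36 h. The 8 matched markers of kidney and Wolffian tubules of 10 listed summed to 102 to 106, 82.4 to 89.4 and 218 to 226 FPKM, with 6 higher and none lower. The 7 matched epithelial markers of 8 summed to 746 to 1152, 764 to 782 and 697 to 826, with 1 higher and 4 lower. Markers of Leydig cells, with 3 of 6 matched, summed to at most 4.95 FPKM in any library, those of myoid cells, with 4 of 4 matched, to at most 9.85, and the leukocyte list, with 2 of 4 matched, consisted almost wholly of CD74 (297, 239.96 and 239.94 FPKM). No marker of any list passed at 0 h, where 3.62% of all tested genes were called. The part of these shifts in the chaperone results was not tested.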

How the data were processed

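RNA sequencing measured total RNA of 9 libraries in 3 groups. Per the submitters' processing notes, base calls came from bcl2fastq and alignments from HISAT2 2.0.5; the counter, annotation and genome build are not given in the sources used here. The authors deposited FPKM per gene with gene lengths, per the file headers. FPKM times length gave whole reads for 100% of values (tolerance 1e-06), and 8 emptied lines were not used here. At these depths 1 read in a gene of 1 kb is worth 0.0413 to 0.0576 FPKM. Counts recovered this way served only for depth, shares and an alternative test.

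The model was limma 3.58.1 in R 4.3.3 on log2(FPKM + 1) of all tested genes, with group means as its 3 terms, all 9 libraries and an intensity trend, two-sided, with Benjamini-Hochberg adjustment at 0.05. Intervals are at 95%. The table names 13457 genes by symbol, and the reference table added 689. Neighbouring genes were read from RefSeq (Sscrofa11.1), where 12079 of 12215 genes that share a symbol overlapped. The fit was tested on simulated reads with a fixed spread and known changes placed only in HS0.5. The simulation held neither the authors' scaling nor a control library that stands apart, so it does not bear on the calls at 36 h.

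The 9 genes were always named; from every other list up to 4 genes with the largest change among those that passed against control were named, and XBP1, TMX4, ERO1B, EIF2AK3, DDIT3, ATF6B, MBTPS1, SESN2 and DDIT4 were chosen after their values were seen. Members and lists were chosen with earlier results of these data known. Alternatives were other pseudocounts (0.1, 5), filters (none, FPKM of at least 5), TPM, quantile normalization, voom on recovered reads with TMM factors, only the 2 groups compared, a replicate block, removal of the length trend (lowess, span 0.3), each library left out and, added after the data were seen, rescaling without mitochondrial and the 20 most abundant genes. No promoter or protein sequence was used here.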

Additional observations from a re-analysis of the deposited data

How the results depend on the processing

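The counts of ER chaperone genes called at 36 h, against control (8 or 9 of 9, and 7 of the 8 left with FPKM of at least 5) and against HS0.5 (7 to 9 of 9, and 8 of those 8), kept within 1.5 times of the reported 8 in all 20 alternatives. No rise of the count could leave that range, since at most 9 genes could be called. The totals also hide directions: against control 7 were lower and 1 higher on the deposited scale. In TPM, under quantile normalization and under the rescaling added later, 6 were lower and 2 higher. At 0 h the count of 1 became 0 with only the 2 groups compared (HERPUD1, limma adjusted p = 0.081) and with the replicate block (0.054), and ran from 0 to 1 with a library left out. The number of all genes called at 0 h, 415, was 193 with no filter, 243 with FPKM of at least 5, 199 in TPM, 116 with only the 2 groups, 221 with the replicate block, 238 after rescaling without mitochondrial and the 20 most abundant genes, and 88 to 457 with a library left out (151 for control replicate 1, 165, 105 and 88 for HS0.5 replicates 1 to 3, 204 for HS0.5-R36 replicate 2 and 214 for 3). The labels do not say whether replicate numbers pair the libraries. Same-numbered libraries correlated at -0.429 to 0.265 after group means were removed, and 2 of 9 matched best with their own number. With 3 libraries a group and control replicate 2 standing apart, these values cannot exclude a pairing.

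Signs turned for changes near 0 at 0 h, none of them called: HSPA5 under quantile normalization (0.101), without the length trend (0.09), under the added rescaling (0.066) and with a library left out (-0.054 to 0.074, positive without control replicate 2 or HS0.5 replicate 1), MANF with a library left out (-0.296 to 0.016, positive without control replicate 2), CALR under quantile normalization (0.036), and HYOU1 under quantile normalization (0.061), under the added rescaling (0.066) and with a library left out (-0.036 to 0.006, positive without control replicate 1 or 3 or HS0.5 replicate 2). At 36 h HYOU1 (0.018), CANX (0.026), GANAB (0.134), ATF6B (0.018), MBTPS1 (0.167) and HSPA8 (0.148) turned under quantile normalization, ATF6B and MBTPS1 also in TPM (0.117 and 0.045) and under the added rescaling (0.144 and 0.073), and the HERPUD1 to HERPUD2 ratio ran from -0.035 to 0.122 with a library left out, negative without HS0.5-R36 replicate 2 or 3 or control replicate 1. The fall of HYOU1 was also lost under the added rescaling, against control (limma adjusted p = 0.14) and HS0.5 (0.052). Against HS0.5, DNAJB9 passed in 7 alternatives. Higher genes made up 45.2% of the calls against control at 36 h, 69.1% in TPM, 70.8% under the added rescaling and 33.7% with FPKM of at least 5. The causes of these differences were not tested. Depth limits DNAJB9 most, at 161 to 387 reads a library.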
